A study of Homo sapiens with 6 samples.

Results

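A set of 10 genes that ERK signalling switches on was followed in DU145 cells treated with OTI-611: DUSP1, DUSP4, DUSP5, DUSP6, SPRY2, SPRY4, SPRED1, ETV4, ETV5 and PHLDA1. They were chosen by gene symbol as outputs and feedback regulators of the ERK pathway, with the measured difference between treated and control libraries already known. All 10 have a row of their own among the 32692 genes of the deposited table. Their values are therefore given as a description of these libraries, and no test is read from them. Of the 10 genes, 9 were higher with OTI-611, by 1.24-fold to 4.46-fold over the mean of the libraries DMSO 2 and DMSO 3, and DUSP4 was slightly lower.

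ERK is the last kinase of a chain that runs from growth factor receptors through RAS, RAF and MEK. Active ERK raises the transcription of genes that then hold it in check. The DUSP proteins take phosphate off MAP kinases, and the SPRY and SPRED proteins act further up, between the receptor, RAS and RAF. ETV4 and ETV5 are transcription factors of the ETS family that carry the signal on, and in many carcinomas their messenger RNA, with those of DUSP6 and SPRY4, is used as a readout of ERK activity.

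The series compared OTI-611, a code-named compound, with its solvent. DU145 is an established human cell line from a prostate carcinoma. The treated cells received 5 µM OTI-611 for 24 h and the control cells DMSO for 24 h, with 3 libraries per group numbered 1 to 3 in the labels. The cells carried no added genetic change that the labels name, and all samples come from this single line, so the values describe DU145 and not prostate carcinoma in general. The labels do not say whether the 3 samples of a group were separate cultures, so the spread between them may be technical.

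No unit is named for the deposited values. They are read here as RPKM, which scales reads by the length of the gene and the size of the library. DMSO 1 differs in that it holds whole numbers only. It is read here as RPKM cut down to whole numbers, and results are given with and without it. In genes at 1 to 50 RPKM its values averaged 0.51 to 0.53 less than those of DMSO 2 and DMSO 3, and in genes at 50 to 200 RPKM, which include DUSP1, 0.918 ± 0.098 (SE) less, more than dropped decimals alone can give. The steps between low values put the other libraries at about 30.5 M to 37.5 M reads, and no estimate was possible for DMSO 1. All 6 epithelial markers checked were present in every library. Their summed level was 921 to 970 RPKM with DMSO and 821 to 852 RPKM with OTI-611. What part this difference had in the results was not tested. The markers did not move together. CDH1, KRT8 and KRT7 were lower in every OTI-611 library than in any DMSO library. CDH1 stood at 4 to 4.80 RPKM with DMSO and at 1.45 to 1.71 RPKM with OTI-611. For EPCAM, KRT18 and KRT19 the ranges of the groups overlapped. Of the markers of luminal prostate cells, KLK3 stayed at or below 0.0595 and KLK2 at or below 0.0229 RPKM. None of the 11 fibroblast, immune and endothelial markers with a row reached 1 RPKM.

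The promoters of DUSP1 and DUSP6 are shown because they were the promoters of these genes that held a motif searched for. RefSeq promoter sequences on GRCh38.p14, running from 250 bases before to 50 after the start, were matched for 6 of the 10 genes: DUSP1, DUSP6, SPRY2, SPRY4, SPRED1 and PHLDA1. Both lie on the minus strand, DUSP1 at chr5:172771146-172771445 and DUSP6 at chr12:89352452-89352751. The sequences read 5′ to 3′ along the gene, and capitals mark the matches.

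DUSP1: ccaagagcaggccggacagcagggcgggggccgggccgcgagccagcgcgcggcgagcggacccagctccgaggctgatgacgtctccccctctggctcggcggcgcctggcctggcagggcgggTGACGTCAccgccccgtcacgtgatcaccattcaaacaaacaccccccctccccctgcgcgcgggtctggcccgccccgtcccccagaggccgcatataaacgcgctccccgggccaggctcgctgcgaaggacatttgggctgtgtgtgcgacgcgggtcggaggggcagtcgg

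DUSP6: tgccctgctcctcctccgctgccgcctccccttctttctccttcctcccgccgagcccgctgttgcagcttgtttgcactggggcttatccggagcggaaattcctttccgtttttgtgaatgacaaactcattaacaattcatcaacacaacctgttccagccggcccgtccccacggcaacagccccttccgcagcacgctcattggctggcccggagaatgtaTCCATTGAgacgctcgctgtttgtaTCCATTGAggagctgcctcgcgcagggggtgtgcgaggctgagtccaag

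The capitals in DUSP1 are the cAMP response element TGACGTCA, bound by factors of the CREB and ATF families, which begins 125 bases before the start and reads the same on both strands. It was found in 1.85% of the 35116 RefSeq promoters of this length. The capitals in DUSP6 are 2 copies of the octamer bound by CIC, a repressor that ERK signalling inactivates. The octamer was searched as TGAATGAA, TGAATGGA, TCAATGAA and TCAATGGA, and both copies are TCAATGGA on the opposite strand. The copies begin 24 bases before the start and at base 2 of the transcript, and 3.77% of all promoters held at least 1 copy. The AP-1 site TGANTCA, the ETS site CCGGAAG and the stress element TTGCATCA were found in none of the 6 promoters, against 7.71%, 10.3% and 0.87% of all promoters. These are matches of letters in a short window, and binding was not measured.

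Among the phosphatases of the nucleus, DUSP5 and DUSP1 rose and DUSP4 did not. DUSP5, which takes phosphate off ERK in the nucleus, had the widest difference of the 10 genes. It stood at 24, 26.5 and 25.1 RPKM in DMSO 1, 2 and 3 and at 104, 111 and 129 RPKM in OTI-611 1, 2 and 3. The treated libraries all lay far above the controls, and the lowest treated value was 3.94 times the highest of DMSO 2 and DMSO 3. The log2 fold change, here and throughout of (RPKM + 1), was 2.14 ± 0.070 (SE, 3 libraries per group). That was place 16 from the top among 11978 genes tested. SEs of log2 fold changes are limma's moderated SEs, in which each gene's variance is drawn towards a trend over all genes tested. They are not the spread of a gene's own libraries alone. In RNA taken from a whole culture, a change in the share of cells that express a gene and a change in RNA per cell cannot be told apart. DUSP1, a phosphatase that acts on p38 and JNK as well as ERK and that many stresses induce, stood at 57, 66.8 and 64.0 RPKM with DMSO and at 123, 123 and 143 RPKM with OTI-611. The groups did not overlap, and the log2 fold change was 1.04 ± 0.068 (SE). DMSO 1 was 8.44 RPKM below the mean of DMSO 2 and DMSO 3 for this gene, more than lost decimals can give, and without it the log2 fold change was 0.97 ± 0.065 (SE).

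DUSP4, a nuclear phosphatase of the same subfamily, stood at 6, 6.36 and 6.85 RPKM with DMSO and at 5.70, 5.63 and 5.95 RPKM with OTI-611. The treated values all lay under the controls, but OTI-611 3 came within a small step of the whole number given for DMSO 1. The log2 fold change was -0.13 ± 0.060 (SE) and did not pass the threshold, and without DMSO 1 it was -0.17 ± 0.054 (SE) and passed. At 0.872 times the mean of DMSO 2 and DMSO 3, its level with OTI-611 was the lowest ratio of the 10 genes. DUSP6, the phosphatase that acts on ERK in the cytoplasm, stood at 6, 5.71 and 6.41 RPKM with DMSO and at 14.0, 14.9 and 15.2 RPKM with OTI-611. Treated and control libraries were well apart, with a log2 fold change of 1.16 ± 0.053 (SE). DUSP4 and DUSP6 had similar levels in the control libraries, and with OTI-611 DUSP6 was the higher in every library. In GENCODE release 29 on GRCh38, exons of a gene on the other strand, AC024909.2, cover 40.5% of the exon bases of DUSP6. Whether strand was used in counting is not given in the sources used here, so reads of these genes could not be told apart there.

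**Figure D1:**
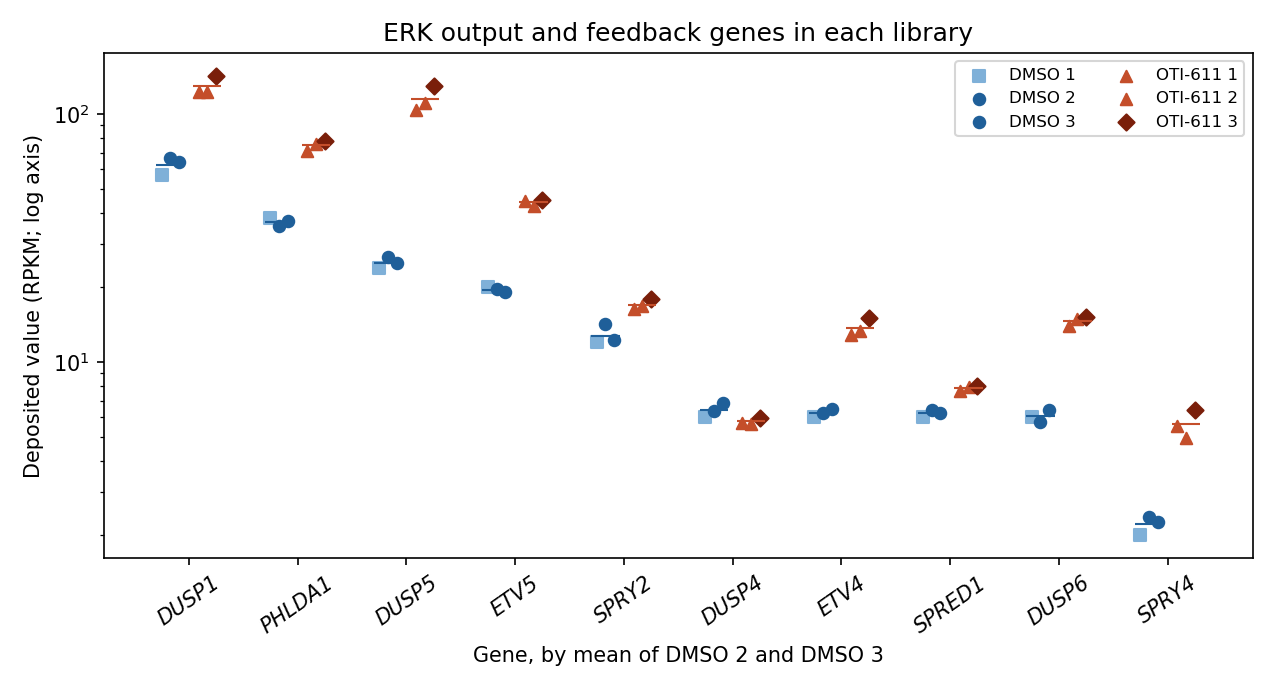
Deposited value (RPKM, log axis) of each of the 10 genes in each library, with squares for DMSO 1 (whole numbers), circles for DMSO 2 and 3, triangles for OTI-611 1 and 2, diamonds for OTI-611 3, and short lines for the mean of each group of 3. The OTI-611 libraries sit higher than every DMSO library for 9 genes and just below them for DUSP4, and DUSP5 shows the widest gap, from 24.0 to 26.5 RPKM up to 104 to 129 RPKM.

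The sprouty proteins block the path from receptors to RAS and RAF. SPRY4 was the lowest of the 10 genes in the control libraries, at 2, 2.37 and 2.28 RPKM, and stood at 5.51, 4.94 and 6.39 RPKM with OTI-611. The groups were clearly apart, although the treated libraries were spread more widely than for most of the genes. Its log2 fold change was 1.04 ± 0.095 (SE), which the added pseudocount of 1 makes smaller than the ratio of 2.42 to the mean of DMSO 2 and DMSO 3. SPRY2 stood at 12, 14.2 and 12.2 RPKM with DMSO and at 16.4, 16.8 and 17.9 RPKM with OTI-611. Its control libraries were uneven, with DMSO 2 the highest, and all treated values lay above them. The log2 fold change was 0.39 ± 0.062 (SE). SPRED1, a sprouty-related protein that brings the RAS inhibitor neurofibromin to the membrane, stood at 6, 6.43 and 6.24 RPKM with DMSO and at 7.67, 7.97 and 8.02 RPKM with OTI-611. Its log2 fold change of 0.30 ± 0.050 (SE) was the smallest of the 9 rises. The ratio to DMSO 2 and DMSO 3 was thus 2.42 for SPRY4, 1.29 for SPRY2 and 1.24 for SPRED1.

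ETV4 and ETV5 rose by close to the same factor from different levels. ETV5 stood at 20, 19.6 and 19.2 RPKM with DMSO and at 44.6, 42.7 and 45.2 RPKM with OTI-611. Both groups were tight, and the log2 fold change of 1.13 ± 0.033 (SE) had the smallest moderated SE of the 10. ETV4 stood at 6, 6.24 and 6.47 RPKM with DMSO and at 12.8, 13.3 and 15.1 RPKM with OTI-611, a log2 fold change of 1.02 ± 0.062 (SE). Against DMSO 2 and DMSO 3 the ratio was 2.27 for ETV5 and 2.16 for ETV4. The exon bases of ETV5 and ETV4 are shared with neighbouring genes to 2.83% and 1.89%. The gene that shares exon bases with ETV5, DGKG, was lower with OTI-611 (log2 fold change -0.83, limma adjusted p = 3.68e-05), and DHX8 beside ETV4 stood at 0.04 (limma adjusted p = 0.34).

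PHLDA1, which encodes a protein with a pleckstrin homology-like domain and is induced by growth factors and by stress, stood at 38, 35.4 and 37.1 RPKM with DMSO. With OTI-611 it stood at 71.3, 75.6 and 77.9 RPKM. No treated library came near the controls, and the log2 fold change was 1.00 ± 0.039 (SE). DMSO 1 was 1.73 RPKM above the mean of the other control libraries here and 0.573 RPKM above it for ETV5, whereas for the other 8 genes it was below. Exons of AC011611.3 and AC011611.4, on the other strand, cover 16.5% of the exon bases of PHLDA1.

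Counted against the whole table, 9 of the 10 genes passed a limma adjusted p of 0.05 as higher and none as lower. Of the 11978 genes tested, 27.8% passed as higher and 37.3% as lower (3332 and 4473 genes). That excess of lower calls depended on scaling, with 3986 higher and 3978 lower after rescaling to the median log ratio and 4085 and 4115 after quantile normalization. Without DMSO 1 the same 9 genes passed as higher, against 26.3% of all genes, and DUSP4 passed as lower, against 42.4%. In 9 of the genes every OTI-611 library exceeded every DMSO library, and in DUSP4 every one was lower, against 30.5% and 39.7% of all genes. A log2 fold change of at least 1 was reached by 7 of the 10, namely DUSP5, DUSP6, ETV5, DUSP1, SPRY4, ETV4 and PHLDA1, against 1.91% of all genes. Without DMSO 1, DUSP1 (0.97) and SPRY4 (0.99) no longer reached it. The median log2 fold change of the 10 genes in all 6 libraries was 1.03, and that of all genes tested was -0.05. Since the choice of the genes used this comparison, nothing is read from these shares.

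**Figure D2:**
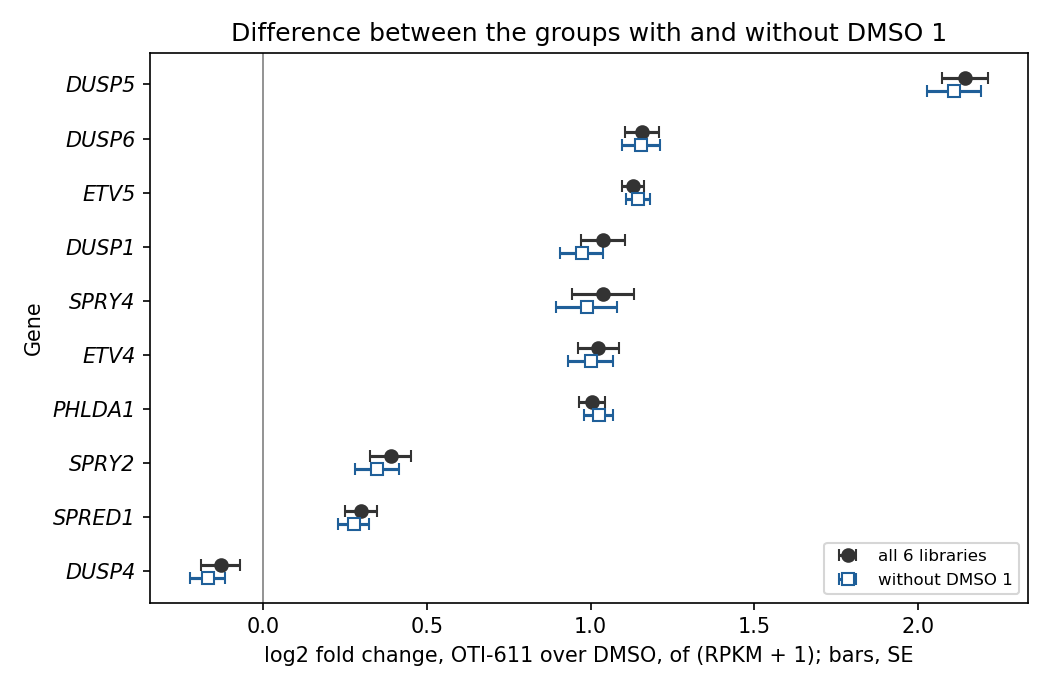
Log2 fold change of (RPKM + 1), OTI-611 over DMSO, for each of the 10 genes, with SE bars, from all 6 libraries (filled circles) and without DMSO 1 (open squares). With all 6 libraries, DUSP5 stands alone at 2.14, 6 genes lie between 1.00 and 1.16, and SPRY2 and SPRED1 lie at 0.39 and 0.30. DUSP4 lies at -0.13, or -0.17 without DMSO 1.

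The order of the levels changed with treatment. In DMSO 2 and DMSO 3, DUSP1 (mean 65.4 RPKM) was followed by PHLDA1 (36.3), DUSP5 (25.8), ETV5 (19.4) and SPRY2 (13.2), each apart from the next in both libraries. DUSP4, ETV4, SPRED1 and DUSP6 then lay between 6.06 and 6.61 RPKM, where each gene's range overlapped that of the next, and SPRY4 (2.32) was last. With OTI-611, DUSP5 (115 RPKM) moved past PHLDA1 (74.9), and its range overlapped that of DUSP1 (130). DUSP6 (14.7) and ETV4 (13.7) overlapped each other and were now above SPRED1 (7.89), and DUSP4 (5.76) shared the lowest place with SPRY4 (5.62). Estimated reads per gene and library ran from 474 for SPRY4 in DMSO 2, where counting alone gives an error of 4.59%, to 23563 for PHLDA1 in OTI-611 3. The libraries were amplified without molecular identifiers that the labels name, so these errors cover counting only.

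Within the treated group, the same library was the highest for every gene of the set. The order of the other treated libraries varied, with OTI-611 1 above OTI-611 2 for SPRY4, ETV5 and DUSP4 and below it elsewhere. OTI-611 3 had the highest value of the 3 treated libraries in all 10 genes, DUSP4 included, whereas it was the highest in 29.4% of the genes tested. It exceeded the mean of OTI-611 1 and OTI-611 2 by 2.58% for SPRED1 up to 19.9% for DUSP5 and 22.2% for SPRY4, with a median of 6.85% over the 10 genes and of -0.771% over all genes tested. Counting error was 0.89% for DUSP5 in OTI-611 3 and 2.52% for SPRY4. What set OTI-611 3 apart was not tested. Without OTI-611 3 the log2 fold change was 2.06 for DUSP5, 0.97 for DUSP1, 0.96 for ETV4 and 0.95 for SPRY4, and the same 9 genes passed.

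**Figure D3:**
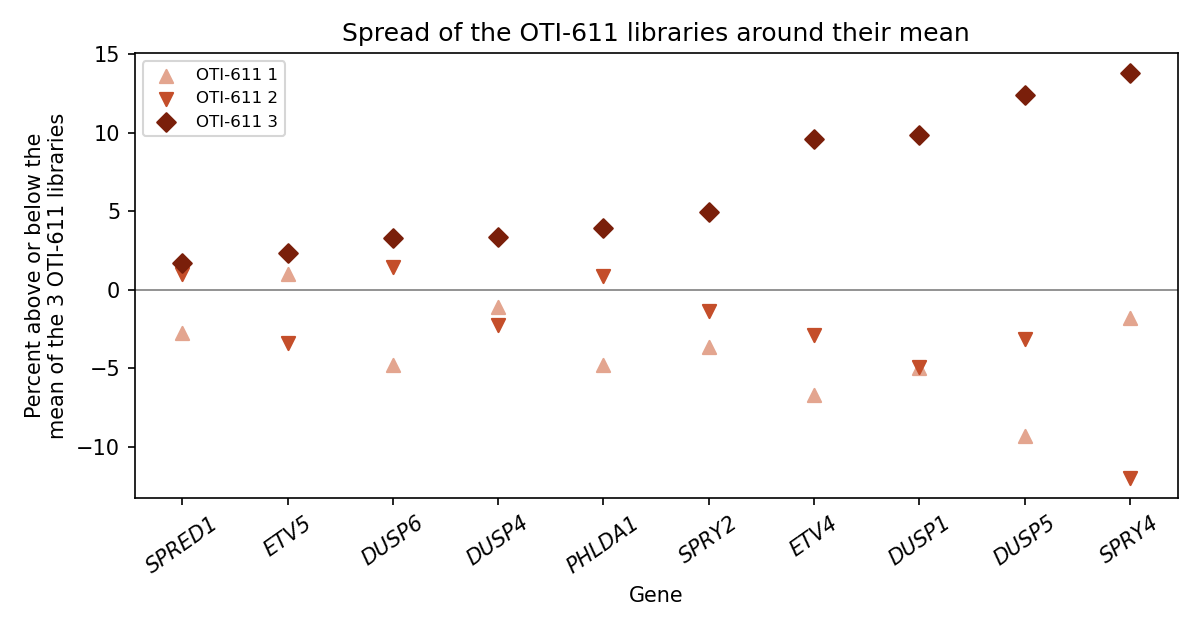
Each of the 3 OTI-611 libraries as a percentage above or below their mean, for the 10 genes in order of the excess of OTI-611 3 over the other OTI-611 libraries. OTI-611 3 (diamonds) is the highest in all 10 genes, closest to the others for SPRED1 and farthest for SPRY4 and DUSP5.

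The lists that follow are read against the shares of all genes tested, 27.8% higher and 37.3% lower, and counts near them say nothing particular to a list. Of 13 close relatives of the 10 genes, 11 had a row and 6 were tested, of which 3 rose and the other 3 did not pass. Their median log2 fold change was 0.17. DUSP10, a phosphatase of JNK and p38, rose from 1, 1.96 and 1.82 RPKM to 3.23, 3.42 and 3.39 RPKM (log2 fold change 0.77, limma adjusted p = 0.0013). Without the whole number of DMSO 1 its log2 fold change was smaller, at 0.59 (limma adjusted p = 2.03e-04). PHLDA3, an inhibitor of AKT, rose by 0.42 on the log2 scale (limma adjusted p = 2.36e-04). SPRED3 rose by 0.29 (limma adjusted p = 0.030), a call lost without DMSO 1 (adjusted p = 0.0502), without DMSO 3, without each OTI-611 library (adjusted p up to 0.13), with no filter on low values (adjusted p = 0.12) and with every library cut to whole numbers (adjusted p = 0.41). DUSP7, a cytoplasmic ERK phosphatase related to DUSP6, had a log2 fold change of -0.26 (limma adjusted p = 0.078), and without DMSO 1 it fell by 0.36 (adjusted p = 0.0073). It also passed as lower with 0.5 added to DMSO 1 (-0.33, adjusted p = 0.0045), and in the other settings in which it was tested the adjusted p was 0.062 to 0.26. SPRED2 stood at 0.06 and DUSP9 at -0.01, neither past the threshold. DUSP2, DUSP8, SPRY1, SPRY3 and PHLDA2 lay under the mean of 1 RPKM set for testing.

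Of 16 other genes used as ERK readouts, 12 were tested: 7 rose, 3 fell and the rest did not pass, beside 27.8% higher and 37.3% lower over all genes. The median log2 fold change was 0.24. The growth regulator MYC rose by 0.93 on the log2 scale (limma adjusted p = 1.74e-07), the urokinase receptor gene PLAUR by 0.90 (adjusted p = 5.05e-07) and the potassium channel gene KCNN4 by 0.65 (adjusted p = 4.36e-05). JUNB, an AP-1 factor, fell by 1.22 (adjusted p = 1.36e-06). The early response factor EGR1 stood at 10, 13.6 and 12.4 RPKM with DMSO and at 2.84, 7.78 and 3.95 RPKM with OTI-611, with all treated libraries below the controls, and fell by 1.23 (adjusted p = 0.0021). FOS, another early factor, was under the minimum for testing, at 1, 1.59 and 1.49 RPKM with DMSO and 0.229, 0.661 and 0.327 RPKM with OTI-611. FOSL1, an AP-1 factor that ERK also stabilises as a protein, rose by 0.42 (adjusted p = 1.59e-04). The cyclin D1 gene CCND1 fell by 0.13 (adjusted p = 0.0033), a call lost when the libraries were rescaled to their median log ratio (adjusted p = 0.21). High DUSP5, DUSP6, ETV4 and ETV5 thus stood beside low EGR1 and JUNB in the same libraries.

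Upstream, ligands and receptors were read from lists of 12 and 11 genes. Of 7 ligand genes tested, 4 rose and 1 fell, around a median of 0.28 on the log2 scale. Amphiregulin (AREG), a ligand of the EGF receptor, rose from 79, 81.6 and 80.3 RPKM to 121, 121 and 121 RPKM (log2 fold change 0.58, limma adjusted p = 8.96e-08). FGF2 rose by 0.58 (adjusted p = 2.75e-06) and EREG by 0.30 (adjusted p = 1.47e-04), while HBEGF fell by 0.44 (adjusted p = 1.30e-04). Of 8 receptor genes tested, 2 rose and 5 fell, with a median of -0.23, where 27.8% of all genes passed as higher and 37.3% as lower. MET, the receptor of hepatocyte growth factor, rose by 0.52 (adjusted p = 4.02e-07). ERBB2 fell by 0.86 (adjusted p = 3.84e-07), its partner ERBB3 by 0.78 (adjusted p = 7.35e-05) and the insulin-like growth factor receptor gene IGF1R by 0.46 (adjusted p = 3.14e-05). The other receptor gene that rose was EGFR, by 0.27 (adjusted p = 2.46e-04).

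Of 24 genes of the chain itself, from adaptors to ERK, 22 were tested: 10 rose and 10 fell, beside 27.8% and 37.3% of all genes. Their median stood at -0.05 on the log2 scale, close to that of all genes tested. The adaptor gene SHC1 fell from 173, 176 and 173 RPKM to 97.5, 96.8 and 101 RPKM (log2 fold change -0.82, limma adjusted p = 1.81e-08). SOS1, which loads RAS with GTP, fell by 0.76 (adjusted p = 2.52e-06), while its relative SOS2 rose by 0.34 (adjusted p = 7.75e-05). PEBP1, which encodes an inhibitor of RAF kinases, fell by 0.49 (adjusted p = 2.10e-07). MAPK3, which encodes the kinase ERK1, fell by 0.33 (adjusted p = 1.28e-05).

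Among kinases and transcription factors that ERK acts on, with CIC, 7 of 15 tested rose and 4 fell, with a median of 0.07, beside the same shares of all genes. MKNK2, a kinase of the translation factor eIF4E, rose from 21, 21.7 and 21.8 RPKM to 50.4, 52.3 and 55.1 RPKM (log2 fold change 1.25, limma adjusted p = 1.81e-08). The ETS factor genes ETS2 and ETS1 rose by 0.86 and 0.73 (adjusted p = 1.46e-07 and 1.59e-07) and ELK3 by 0.56 (adjusted p = 3.64e-06). The repressor gene CIC stood at -0.08 (adjusted p = 0.32). DUSP1 and DUSP10 also act on the JNK and p38 kinases. The list of these kinases and their activators had 2 rises and 4 falls among 10 tested genes, close to the shares of all genes. The activator gene MAP2K7 and the kinase gene MAPK8 (JNK1) rose by 0.48 and 0.40 (adjusted p = 6.70e-06 and 1.10e-05). MAPK14 and MAPK11 (p38 alpha and beta) fell by 0.29 and 0.37 (adjusted p = 8.06e-05 and 0.0015). Messenger RNA levels do not measure phosphorylated ERK, which was not analysed here.

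**Figure D4:**
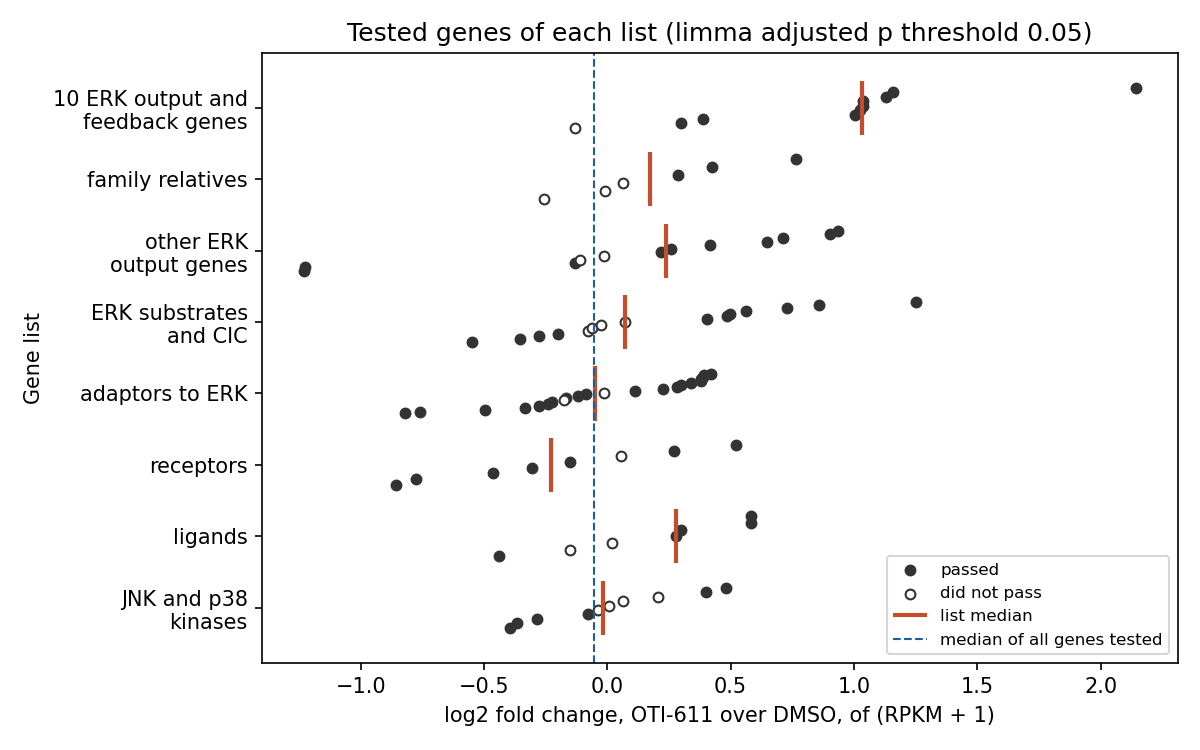
Log2 fold change of (RPKM + 1), OTI-611 over DMSO, of every tested gene of each list; filled points passed a limma adjusted p of 0.05, open points did not, thick lines mark list medians and the dashed line the median of all genes tested (-0.05). The list of the 10 genes, chosen with these values known, has a median of 1.03, the other lists lie between -0.23 and 0.28, and the leftmost points among the other ERK output genes are EGR1 and JUNB.

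The genes most like DUSP5 and DUSP4 were found by the smallest Euclidean distance between centred log2 values over the 6 libraries. For DUSP5 they were PPP1R15A, a regulator of eIF2 phosphorylation (distance 0.13), the transcription factor gene NFIL3 (0.19) and SLAMF7 (0.31). PPP1R15A stood at 29, 32.3 and 32.0 RPKM with DMSO and at 130, 150 and 158 RPKM with OTI-611. OTI-611 3 was the highest library for PPP1R15A and NFIL3, and OTI-611 1 for SLAMF7 (7.46, 7.09 and 7.29 RPKM). A likeness to DUSP5 in these libraries is what these genes were picked for, so it is no separate observation. For DUSP4 they were ALKBH7 (0.046), PSD4 (0.054) and SLC25A25 (0.054), with log2 fold changes of -0.10, -0.13 and -0.09. These measures describe 6 libraries in 2 groups that share the treatment.

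In GENCODE release 29 on GRCh38, all 10 are protein-coding genes. DUSP5 lies on chromosome 10 from 110497838 to 110511544 on the plus strand and DUSP1 on chromosome 5 from 172768090 to 172771195 on the minus strand, and 0% of the exon bases of either is shared with another gene. DUSP6 lies on chromosome 12 from 89347232 to 89353271, and PHLDA1 on the same chromosome from 76025447 to 76033932. ETV4 lies on chromosome 17 from 43527844 to 43579620 and ETV5 on chromosome 3 from 186046308 to 186110318. SPRY4 lies on chromosome 5 from 142310427 to 142326455, SPRY2 on chromosome 13 from 80335976 to 80340951, SPRED1 on chromosome 15 from 38252326 to 38357249 and DUSP4 on chromosome 8 from 29333064 to 29350668.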

How the data were processed

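RNA from 6 DU145 samples was extracted with a miRNeasy kit, amplified by Geo-seq and made into libraries with a TruePrep kit, per the labels' protocols. Per the submitters' processing notes, the tools were TopHat2 2.0.9, Cufflinks 2.1.1, CASAVA 1.7, HTSeq and FastQC, with no role stated, and the build was mm10, a mouse genome. All 32692 gene IDs are human, so the build behind the values is not established. The authors deposited 5 columns without a named unit, read here as RPKM (FPKM would look alike), and the DMSO 1 column, deposited as whole numbers, is treated as a score on that scale. Depth came from the steps of low values with GENCODE exon lengths, at which 80.2% to 81.3% of low values were whole reads within 0.05.

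The 11978 genes whose mean over the 6 libraries was 1 or more were fitted as log2(value + 1) with limma 3.58.1 in R 4.3.3 (group only, trended prior, two-sided, p adjusted by Benjamini-Hochberg over all of them, threshold 0.05). The code was tested on simulated data. The table held no counts, so the count test that the plan allowed for was not used. The members and lists were chosen with earlier results of these data known. Beside the members, the rule named up to 4 tested genes per list by smallest p, and the 3 genes nearest in pattern to DUSP5 and DUSP4. SPRED2, DUSP9, EGR1, FOS, FOSL1, CCND1, EGFR, SOS2, CIC, DGKG and DHX8 were named after their values were seen. Alternatives were other pseudocounts, filters, scalings and variance priors, the replicate block, other treatments of DMSO 1, and each library left out in turn.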

Additional observations from a re-analysis of the deposited data

How the results depend on the processing

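Across 16 alternatives, the 9 genes that were higher with OTI-611 stayed higher wherever they were tested. With a minimum mean of 5, SPRY4 was not tested and 8 passed. Their log2 fold changes ranged from 2.06 to 2.21 for DUSP5 and from 0.25 to 0.36 for SPRED1, and SPRY4 ranged most, from 0.95 to 1.30, the latter with a pseudocount of 0.1. DUSP4 ran from -0.22 to -0.05. The count of the 10 genes passing as lower was 0, and it was 1 (DUSP4) when every library was cut to whole numbers and 1 when 0.5 was added to DMSO 1. Cut to whole numbers, DUSP4 took the same value in all libraries of a group, so that call reflects where the whole numbers fall. Leaving out 1 library at a time gave 0 to 1 lower, the 1 without DMSO 1. The number of genes called over the whole table ran from 5879 with a minimum mean of 5 to 8530 with 0.5 added to DMSO 1. The replicate block gave 7756 calls against 7805, and the same 9 rises. Same-numbered libraries did not deviate together (correlations 0.019, 4.1e-04 and -0.058), and not every library correlated best with its own number. With 3 libraries per group and DMSO 1 in whole numbers, these correlations cannot show whether same-numbered samples were handled together. The labels give them only a shared number. Depth limits SPRY4 most among the 10 genes, and values of DMSO 1 under a few RPKM are coarse.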
